A study of Mus musculus with 2 samples.

Results

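The 10 genes described here belong to the Bcl2 family, the proteins that set whether the mitochondrial route of apoptosis is engaged. They were taken by symbol from a list, 10 of the 31053 genes in the count matrices, by a rule that uses no measured value, although earlier results of these data were known when the list was made. 4 of them act against death (Bcl2, Bcl2l1, Mcl1 and Bcl2a1b) and 6 act for it: the pore formers Bax and Bak1, and the BH3-only proteins Bid, Bbc3, Bcl2l11 and Pmaip1. They were followed in cells of the mouse retina after oxygen-induced retinopathy (OIR) and in a control retina.

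Both groups were wild-type C57BL/6 mice killed at postnatal day 17. In the OIR group, pups and their nursing mother were kept in 75% oxygen from day 7 to day 12 and then in room air. The treatment stops vessel growth and is followed by overgrowth in room air, a standard mouse model of retinopathy of prematurity. The control group is labelled only as control. Each library came from the retinas of 6 mice, pooled before papain digestion, and from cells held by magnetic beads against CD11b, an integrin chain of myeloid cells. With 1 library per group, the spread between animals was not measured and no test between the groups was possible. The intervals below are at 95% and hold counting error alone, not differences between animals. The order of the values therefore holds for these 2 libraries, and treatment, pool, dissociation and library preparation cannot be told apart.

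Apoptosis through mitochondria starts when Bax or Bak oligomerise in the outer membrane and let cytochrome c out. Pro-survival members hold Bax, Bak and the BH3-only proteins in a groove, and BH3-only proteins either block that groove or activate the pore formers directly. Most of this control acts on proteins (binding, cleavage, phosphorylation and turnover), so transcript levels give the supply of each member and not the state of the switch. Bax and Bcl2l11 are best known in the retina from developmental death of neurons, and Mcl1 and Bcl2a1 from the survival of myeloid cells.

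The stretch that inserts into the groove is the BH3 motif, and it is the part that the members share across both roles. A run of 6 codons, for leucine, any 3 residues, glycine or alanine, and aspartate, was searched in frame in the coding sequences of the GENCODE annotation of GRCm38 (mm10), on the coding strand only. It was found once in each of the 8 genes printed here. Such a short run is common: 24.1% of 20323 coding genes hold at least one, so a match describes the letters and identifies no site by itself. Each sequence is given 5′ to 3′ on the strand of the gene, with the 6 codons in capitals and 12 to 15 flanking bases, because the run shows which letters survivors and killers have in common.
Bcl2 (chr1:106712569-106712613, minus strand): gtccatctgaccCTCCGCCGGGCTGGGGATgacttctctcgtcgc
Bcl2l1 (chr2:152829691-152829735, minus strand): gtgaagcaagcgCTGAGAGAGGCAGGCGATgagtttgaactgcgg
Mcl1 (chr3:95659424-95659468, plus strand): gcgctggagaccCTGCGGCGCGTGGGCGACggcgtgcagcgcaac
Bax (chr7:45465991-45466035, minus strand): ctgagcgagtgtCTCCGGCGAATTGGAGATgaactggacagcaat
Bak1 (chr17:27022525-27022569, minus strand): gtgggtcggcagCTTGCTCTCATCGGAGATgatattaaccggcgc
Bid (chr6:120897283-120897327, minus strand): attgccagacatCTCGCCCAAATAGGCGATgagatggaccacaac
Bbc3 (chr7:16313761-16313805, plus strand): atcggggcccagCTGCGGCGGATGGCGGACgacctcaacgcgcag
Bcl2l11 (chr2:128147138-128147182, plus strand): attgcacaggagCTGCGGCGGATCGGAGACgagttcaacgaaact
The fifth codon is for glycine in 7 of the 8 and for alanine in Bbc3, which encodes Puma. All 8 stretches lie in a coding exon. Pmaip1, which encodes Noxa, is described by its values only.

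Bcl2a1b needs a reservation, since it is 1 of a set of near-identical copies on chromosome 9 (Bcl2a1a, Bcl2a1b and Bcl2a1d). Over their 516 coding bases, Bcl2a1b shares 97.9% with Bcl2a1a and 98.8% with Bcl2a1d, and 12 positions differ among the copies. None of the 3 holds the run of 6 codons used above. Their first 60 coding bases show how far apart they are, with the 6 positions that differ in capitals.
Bcl2a1a (chr9:88957051-88957110, plus strand): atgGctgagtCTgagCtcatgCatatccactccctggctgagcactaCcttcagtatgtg
Bcl2a1b (chr9:89199360-89199419, plus strand): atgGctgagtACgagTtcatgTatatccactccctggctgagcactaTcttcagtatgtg
Bcl2a1d (chr9:88731660-88731719, minus strand): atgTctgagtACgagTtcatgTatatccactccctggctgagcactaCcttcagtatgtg
Runs shared by Bcl2a1b with the other copies reach 90 bases (Bcl2a1a) and 176 bases (Bcl2a1d) within the last 300 bases of the transcripts. How reads that match more than 1 copy were counted is not given in the sources used here, so the split of UMIs among the copies is uncertain.

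The control library held 10826 barcodes and 50081145 UMIs (unique molecular identifiers, each a counted transcript molecule), and the OIR library 7283 barcodes and 49773742 UMIs. After filters, 8585 cells of the control library (median depth 1648 UMIs) and 6132 of the OIR library (2828 UMIs) were kept, and 89 barcodes occurred in both libraries. Over all barcodes, before filters, the members together had 24954 UMIs in the control library and 26460 in the OIR library. The submitters label all cells as retinal microglia, yet only 9.66% of control cells (829) and 10.3% of OIR cells (634) fell in clusters with microglial markers. The rest were mostly rod-like (6684 and 3559 cells), cone-like (329 and 751), Müller glia-like (312 and 462) and bipolar-like (270 and 480), each named from markers by cluster. Border macrophage-like cells numbered 29 and 91. Over all cells, Xist had 1389 CPM in control against 1803 CPM in OIR, and the Y-linked Ddx3y 27.7 and 12.5 CPM. The pools thus differed in sex-linked transcripts, whose part in the results was not tested. CPM, the usual depth-scaled count, sets the UMIs of a gene against all UMIs of its class in that library. In microglia-like cells the 12 microglial markers summed to 28040.1 CPM in control and 17708 CPM in OIR, with no marker at 0 in either library. The 10 Müller glia markers, a list that includes Apoe, summed there to 24036 CPM in control and 24379.6 CPM in OIR. In OIR this was more than the microglial markers. Markers of red blood cells summed to 5.65 CPM in control (3 of 7 at 0) and 5147 CPM in OIR (0 of 7 at 0). Border macrophage markers summed to 93.9 CPM (3 of 9 at 0) and 374 CPM (0 of 9 at 0). In Müller glia-like cells the 10 Müller glia markers summed to 26243 CPM in control and 13362 CPM in OIR. The 10 rod markers summed to more there, 37566 and 41085 CPM. In cone-like cells the 9 cone markers summed to 13583 and 16477 CPM, below the rod markers at 60666 and 52051 CPM. The part of all these in the member values was not tested.

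A member was counted as higher or lower in OIR when it had at least 20 CPM in 1 library, differed by at least 1.5-fold and had an interval of the ratio that excluded equality. In microglia-like cells 8 of the 10 members reached 20 CPM, and 3 of those passed. Bax was higher in OIR, where 11.8% of the 6055 genes measured in these cells were higher. Bid and Bbc3 were lower, where 18.1% of genes were lower. Mcl1 missed the fold limit at 1.48-fold lower, and Bak1 missed it at 1.47-fold higher. The median log2 ratio of the 8 measured members was 0.05, against -0.12 over all measured genes, with members on both sides from -1.11 (Bbc3) to 0.81 (Bax).

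**Figure D1:**
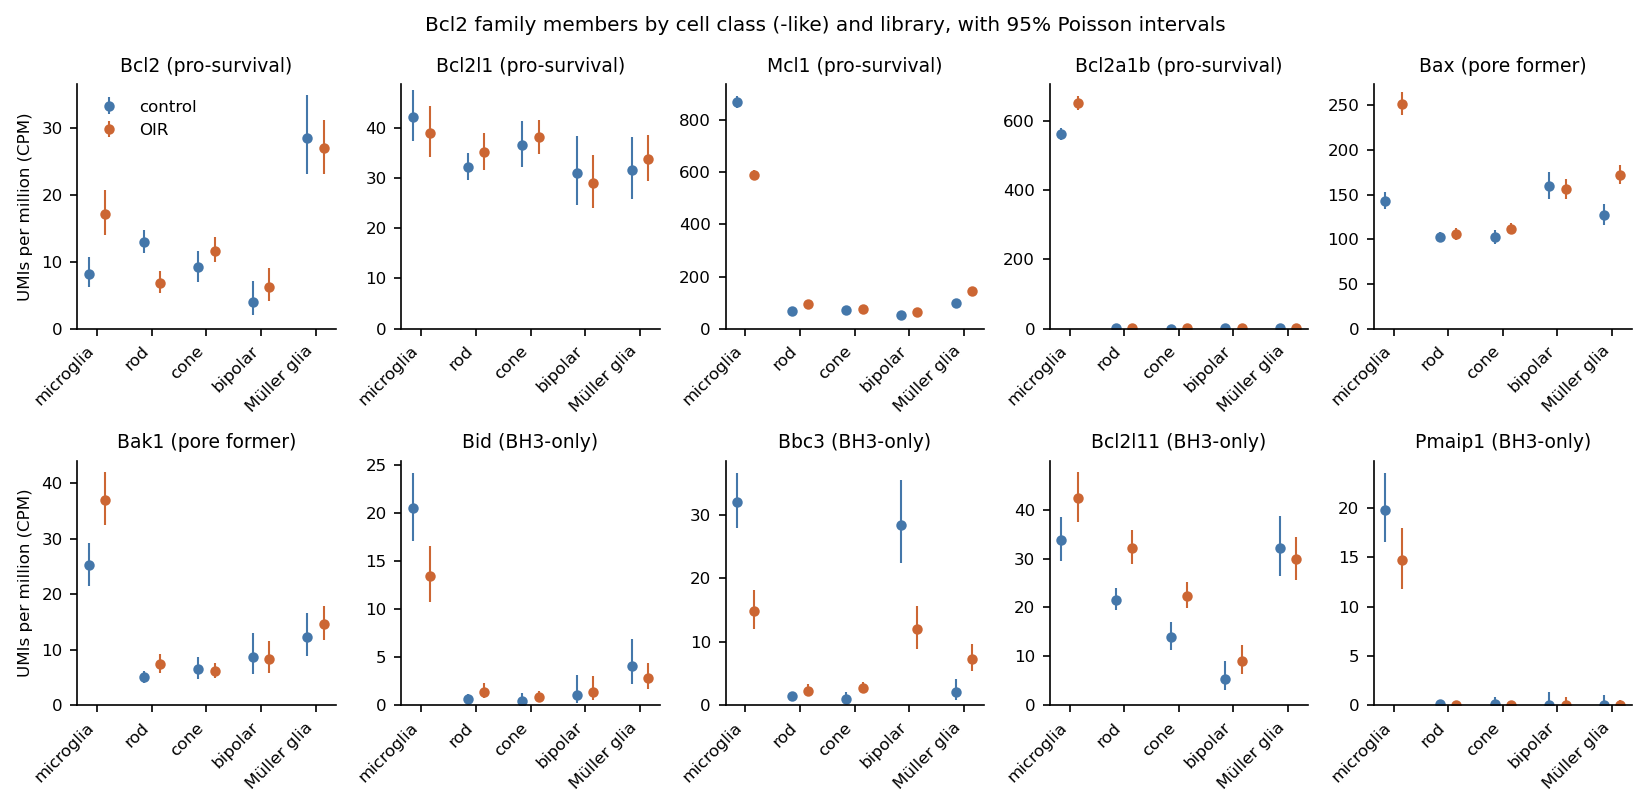
Level of each member in CPM (linear vertical axes) in 5 cell classes of the control and the OIR library, with 95% Poisson intervals of the counts. All members but Bcl2 had their highest of these points in microglia-like cells. For Bcl2l1, Bbc3 and Bcl2l11 the interval of that point overlapped that of another class. Bbc3 stood above 10 CPM in microglia-like and bipolar-like cells only.

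Mcl1, the short-lived survival protein that binds Bak and several BH3-only proteins, had its highest level of the 5 classes in microglia-like cells. There 869 CPM in control (5692 UMIs) stood against 587 CPM in OIR (3676 UMIs). The log2 ratio of OIR to control was -0.57, with an interval from -0.63 to -0.51. In the other classes Mcl1 lay on the opposite side or near equality. Rod-like cells held 67.3 CPM in control and 93.7 CPM in OIR (log2 ratio 0.48, from 0.35 to 0.60). Müller glia-like cells held 99.9 and 146 CPM (log2 ratio 0.54, from 0.36 to 0.73). Cone-like cells (70.7 and 76.4 CPM) and bipolar-like cells (52.8 and 62.8 CPM) had intervals that held 0. None of these passed 1.5-fold.

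Bcl2a1b encodes A1, a survival protein that is induced by inflammatory signals in myeloid cells. It had 562 CPM in control and 650.3 CPM in OIR microglia-like cells (log2 ratio 0.21, from 0.15 to 0.28). The ratio differed with the depth of the cells. It was 0.90 (0.56 to 1.25) under 3000 UMIs and 0.25 (0.17 to 0.34) at 10000 UMIs or more. From 3000 to under 10000 UMIs it was 0.04 (-0.09 to 0.17), and the interval held 0. In the other 4 classes Bcl2a1b lay between 0.437 and 2.46 CPM in both libraries. Of the other copies, Bcl2a1a had 89.9 and 79.7 CPM in microglia-like cells, and Bcl2a1d had 39.8 and 55.1 CPM. Their log2 ratios were -0.17 (-0.35 to 0.00) and 0.47 (0.23 to 0.71), and the uncertain split of reads named above touches all 3 copies.

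Bcl2l1, which encodes Bcl-xL, the main neuronal survival protein of the family, was the most even member across classes and libraries. Its lowest level was 29.0 CPM (OIR bipolar-like cells) and its highest 42.1 CPM (control microglia-like cells). The log2 ratios in the 5 classes lay between -0.11 and 0.13, and all 5 intervals held 0.

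Bcl2, the founding member, was low in microglia-like cells, at 8.24 CPM in control (54 UMIs) against 17.2 CPM in OIR (108 UMIs). Its log2 ratio there was 1.06 (0.58 to 1.56), but it stayed under 20 CPM and was not counted. In rod-like cells it was on the other side, with 13 CPM in control (225 UMIs) and 6.90 CPM in OIR (70 UMIs), with a log2 ratio of -0.91 (-1.32 to -0.52), also under 20 CPM. Müller glia-like cells held the most Bcl2 of the 5 classes, 28.6 and 27.0 CPM, with an interval that held 0. Cone-like cells (9.17 and 11.7 CPM) and bipolar-like cells (4.01 and 6.21 CPM) were low in both libraries.

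Bax was the member that stood higher in OIR microglia-like cells by the limits used. It had 143 CPM in control (940 UMIs) and 252 CPM in OIR (1577 UMIs), which is 1.75-fold and a log2 ratio of 0.81 (0.69 to 0.93). Müller glia-like cells followed with 127 CPM in control and 172 CPM in OIR (log2 ratio 0.44, from 0.27 to 0.60), which did not pass the fold limit. Rod-like cells (103 and 106 CPM), cone-like cells (103 and 112 CPM) and bipolar-like cells (159.9 and 156 CPM) had nearly the same Bax in both libraries, with intervals that held 0. Among the compared classes in control, bipolar-like cells came first (interval 145 to 176 CPM). Microglia-like cells came next (134 to 153 CPM), with intervals that overlapped. Among the same classes in OIR, microglia-like cells came first (239.6 to 265 CPM). Müller glia-like cells came next (162 to 183 CPM), with intervals apart. Smaller groups of OIR cells were outside this order. Neutrophil-like cells held 296 CPM (234 to 371 CPM) and border macrophage-like cells 229.5 CPM (202 to 259.6 CPM). Cells without a class name held 220.4 CPM (187 to 258 CPM). These intervals overlapped that of OIR microglia-like cells. Amacrine-like (129 CPM) and pigment epithelium-like cells (88.8 CPM) held less. The 28 OIR cells named red blood cell-like held 10.9 CPM of Bax, from only 2 UMIs (interval 1.32 to 39.2 CPM).

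Bak1, the other pore former, had 25.2 CPM in control and 37.0 CPM in OIR microglia-like cells (log2 ratio 0.56, from 0.26 to 0.85). It lay under 20 CPM in the other 4 classes. Rod-like cells held 5.02 and 7.39 CPM, cone-like cells 6.55 and 6.16 CPM, bipolar-like cells 8.74 and 8.28 CPM, and Müller glia-like cells 12.3 and 14.6 CPM. Of these low values, the rod-like ratio alone had an interval without 0 (0.56, from 0.09 to 1.02).

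Bbc3 encodes Puma, a BH3-only protein and textbook p53 target. In microglia-like cells it had 32.1 CPM in control (210 UMIs) and 14.9 CPM in OIR (93 UMIs), with a log2 ratio of -1.11 (-1.48 to -0.75). Bipolar-like cells had a similar pair of levels, 28.4 CPM (78 UMIs) and 12 CPM (52 UMIs), with a log2 ratio of -1.25 (-1.78 to -0.72). Bbc3 was the single member counted in bipolar-like cells among 4 measured there, where 6.30% of genes were lower and 4.02% higher. Markers of red blood cells summed to 5.83 CPM in control (3 of 7 at 0) and 2434 CPM in OIR (0 of 7 at 0) bipolar-like cells, and their part was not tested. The 10 rod markers summed to 12374 and 7739 CPM, with none at 0. Without cells that had over 2% of UMIs from rod markers, Bbc3 was 31.9 and 12.2 CPM (log2 ratio -1.38, from -1.94 to -0.83). In Müller glia-like cells it had 2.04 CPM from 7 UMIs in control and 7.30 CPM from 47 UMIs in OIR (log2 ratio 1.84, from 0.68 to 3.23). Cone-like cells had 1.02 CPM (7 UMIs) and 2.70 CPM (35 UMIs), with a log2 ratio of 1.40 (0.21 to 2.82). The last 2 classes thus leaned to OIR, at levels far under 20 CPM.

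Bcl2l11 encodes Bim, the BH3-only protein that binds every pro-survival member and is known for trophic factor withdrawal. Cone-like, rod-like and microglia-like cells leaned to OIR. The rod-like lean rested on 1 cluster, described below, and the cone-like log2 ratio was 0.26 under a stricter cell filter, which left 48 control cells. Cone-like cells had 14.0 CPM in control (96 UMIs) and 22.3 CPM in OIR (290 UMIs), 1.60-fold and a log2 ratio of 0.68 (0.34 to 1.03). It was the single member counted in cone-like cells among 4 measured, where 3.84% of genes were higher and 2.01% lower. Rod-like cells had 21.6 CPM (375 UMIs) and 32.2 CPM (327 UMIs), with a log2 ratio of 0.57 (0.36 to 0.79), which at 1.49-fold just missed the limit. No member of 4 measured was counted in rod-like cells, where 4.07% of genes were higher and 1.23% lower. Microglia-like cells had 33.7 and 42.3 CPM (log2 ratio 0.33, from 0.06 to 0.59). Bipolar-like cells (5.46 and 8.97 CPM) and Müller glia-like cells (32.1 and 29.8 CPM) had intervals that held 0.

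Bid links death receptors to mitochondria after its cleavage by caspase-8. It was measured in microglia-like cells, at 20.5 CPM in control (134 UMIs) against 13.4 CPM in OIR (84 UMIs), with a log2 ratio of -0.61 (-1.02 to -0.20) and 1.52-fold lower. The control level is just above the 20 CPM minimum and the fold just above the limit. In the other classes Bid lay between 0.437 and 4.09 CPM.

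Pmaip1, whose product Noxa mainly engages Mcl1 and A1, was found almost only in microglia-like cells among the 5 compared classes. Cells left without a class name, in a Cldn5-led and a Plac8-led cluster, held 37.2 CPM in control (31 UMIs) and 87.9 CPM in OIR (63 UMIs). Microglia-like cells had 19.8 CPM in control (130 UMIs) and 14.7 CPM in OIR (92 UMIs), with a log2 ratio of -0.43 (-0.84 to -0.04). Rod-like cells had 3 UMIs in control and 0 in OIR, cone-like cells 1 and 0, and bipolar-like and Müller glia-like cells 0 in both. In Müller glia-like cells, where 5 members were measured, none was counted, against 6.79% of genes higher and 10.3% lower.

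**Figure D2:**
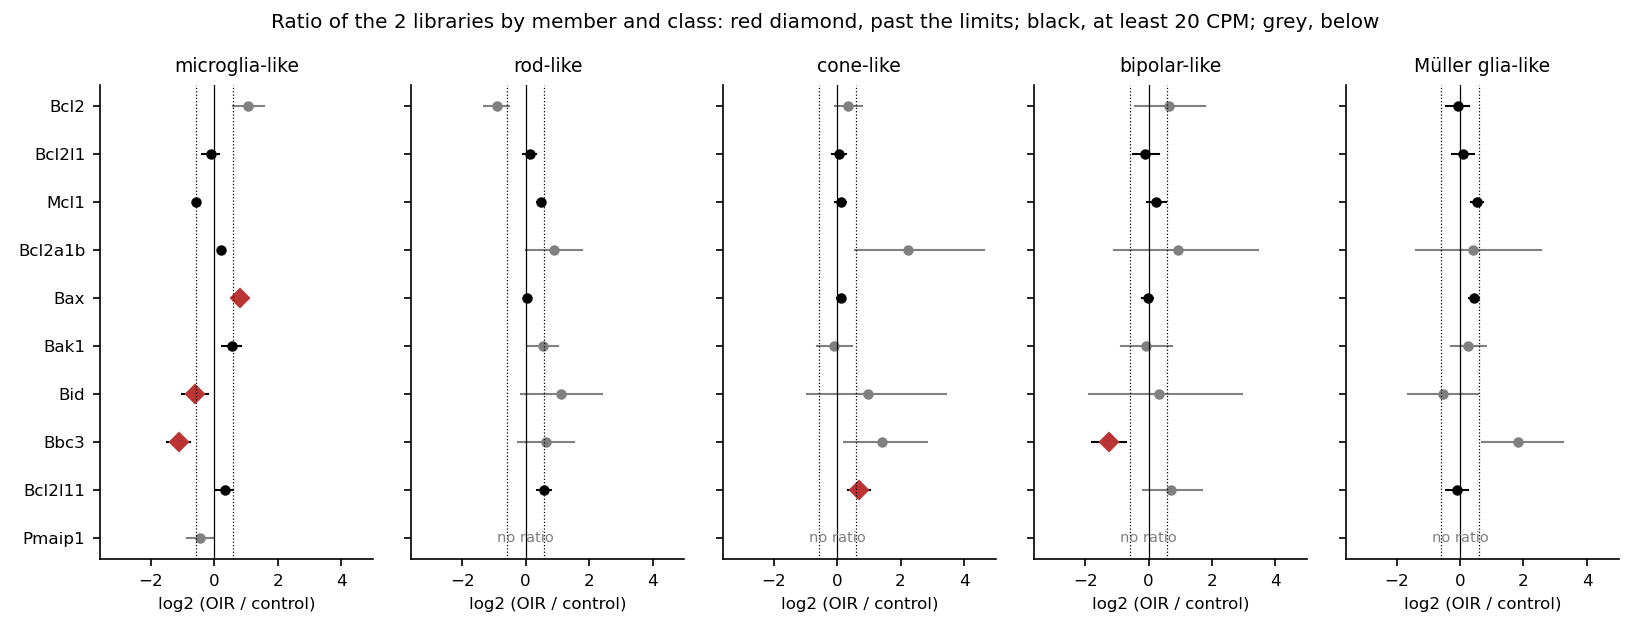
Log2 ratio of OIR to control for each member (rows) in 5 cell classes (panels), with 95% counting intervals. The red diamonds are Bax, Bid and Bbc3 in microglia-like cells, Bcl2l11 in cone-like cells and Bbc3 in bipolar-like cells. Black points reached 20 CPM in 1 library and grey points did not.

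The microglia-like cells of the libraries fell mostly in different clusters, so the values above compare unlike mixtures. Control cells were mainly in the clusters led by Icam1 (245 control and 39 OIR cells), Selplg (172 and 12), Tmem119 (142 and 117), Hpgd (129 and 19) and Rgs10 (127 and 64). OIR cells were mainly in the clusters led by Mmp12 (7 and 221), Hmox1 (1 and 108) and Top2a (6 and 54), besides the Tmem119-led one. The Mmp12-led cluster, whose next genes were Spp1, Hmox1 and Lgals3, was also where red blood cell markers were most frequent, at 0.777% of OIR UMIs. The Top2a-led cluster had 432 CPM of Mki67, a proliferation marker, in OIR. Clusters were made from the same cells and genes, so differences between clusters are given as a description, and a cluster mostly of 1 library may be that library and not a cell state.

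Bax was high in the clusters made up mostly of OIR cells, with 275 CPM in OIR cells of the Mmp12-led, 291 CPM of the Hmox1-led and 269 CPM of the Top2a-led cluster. OIR cells of the Tmem119-led cluster held 210.4 CPM, and the 12 of the Selplg-led cluster 177 CPM. Among the 5 clusters with at least 10 cells of each library, Bax was higher in OIR in 2, the Tmem119-led and Selplg-led (121 CPM in control). It was lower in 3: the Icam1-led (151 and 119.9 CPM), Rgs10-led (156 and 113 CPM) and Hpgd-led (136 and 130.5 CPM) clusters. Without the clusters in which over 90% of cells were from OIR (821 control and 305 OIR cells left), Bax had 141 and 202 CPM (log2 ratio 0.52, from 0.35 to 0.69), which no longer passed 1.5-fold. Within the Tmem119-led cluster, the single one with over 100 cells of each library, Bax was 135 and 210.4 CPM (log2 ratio 0.64, from 0.33 to 0.95). The cells of the 2 libraries were unlike there too, with 611 CPM of Tmem119 in control and 175 CPM in OIR. Rod markers held 1.16% of its control and 1.37% of its OIR UMIs.

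Mcl1 followed another order. Control cells held 999.7 CPM in the Icam1-led and 985 CPM in the Selplg-led cluster, and the few OIR cells there held more, 1158 and 1217 CPM. OIR cells of the Mmp12-led and Top2a-led clusters held 572 and 576 CPM, and those of the Hmox1-led cluster 99.0 CPM. The Hmox1-led cluster was shallow, with a median of 2231 UMIs per OIR cell, and so was the Rgs10-led cluster, where control cells held 87.5 and OIR cells 104 CPM of Mcl1. Among clusters with at least 10 cells of each library, Mcl1 was higher in OIR in 3 and lower in 2. Over all microglia-like cells, the Mcl1 ratio differed with the depth of the cells. Cells under 3000 UMIs held 162 CPM in control and 175 CPM in OIR, those from 3000 to under 10000 UMIs 892 and 649 CPM, and those of 10000 or more 907 and 605 CPM. In the shallowest cells the interval held 0 (log2 ratio 0.11, from -0.46 to 0.70).

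Bbc3 was lower in OIR in 4 of the 5 clusters with at least 10 cells of each library. In the Tmem119-led cluster it had 28.2 CPM in control and 11.9 CPM in OIR (log2 ratio -1.24, from -2.42 to -0.20). Without the clusters over 90% OIR it was 32.1 and 12.2 CPM, with a log2 ratio of -1.39 (-2.05 to -0.79). Bid without those clusters was 20.3 and 14.7 CPM, and its interval then held 0 (log2 ratio -0.47, from -1.09 to 0.12). Bcl2a1b stood at 708 CPM in OIR cells of the Mmp12-led cluster and 660.3 CPM in those of the Hmox1-led one. Among the 5 clusters with at least 10 cells of each library, Bcl2a1b was higher in OIR in 1, the Rgs10-led cluster (358 and 607 CPM), and lower in 4: the Icam1-led (616 and 561 CPM), Selplg-led (571 and 509 CPM), Tmem119-led (512 and 492 CPM) and Hpgd-led (509 and 411 CPM) clusters.

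**Figure D3:**
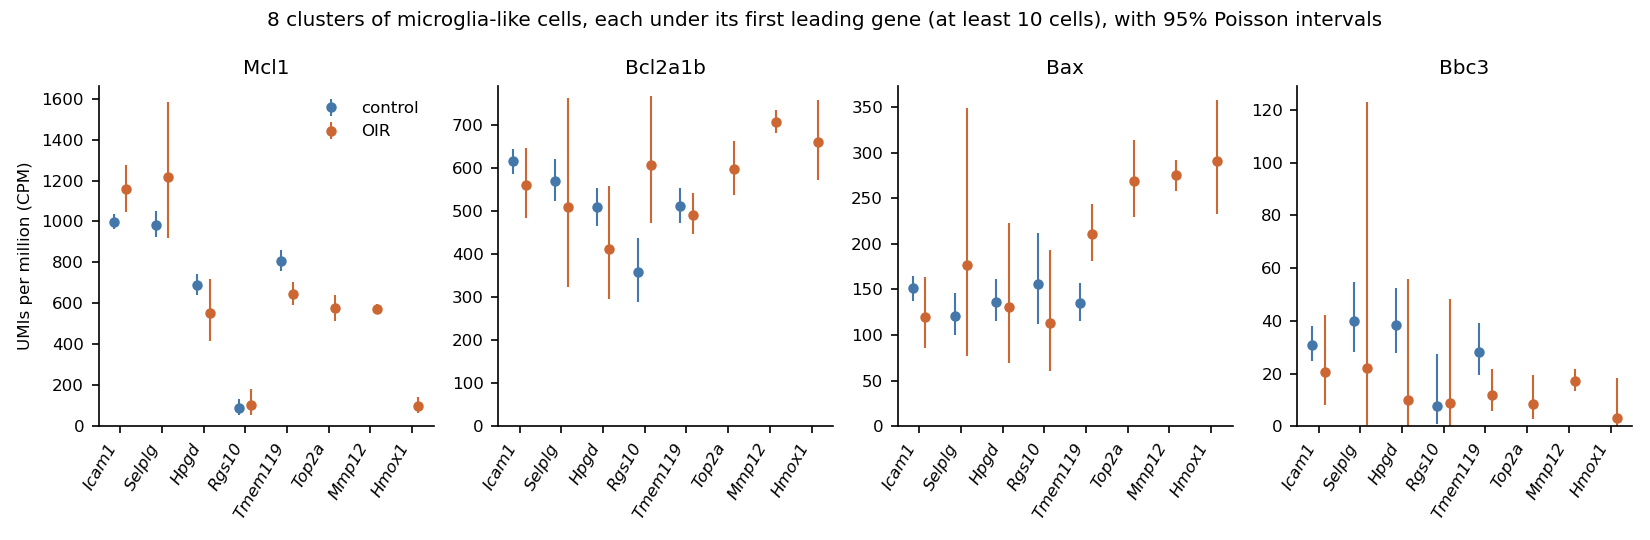
Levels of members in CPM (linear vertical axes) in the 8 clusters of microglia-like cells, each under its first leading gene, with 95% Poisson intervals; points with fewer than 10 cells are left out. Bax is highest in the Hmox1-led, Mmp12-led and Top2a-led OIR cells, and Mcl1 is under 110 CPM in the Rgs10-led and Hmox1-led clusters.

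Since deep cells weigh more in a summed count, shares of cells were also taken after each cell had been thinned to 1500 UMIs. This left 770 control and 551 OIR microglia-like cells, with 59 and 83 shallower cells left out. Mcl1 was then seen in 62.1% of control and 43.4% of OIR cells, with exact binomial intervals of 58.5 to 65.5% and 39.2 to 47.6%. Bax was seen in 20.6% (17.8 to 23.7%) and 29.0% (25.3 to 33.0%), and Bak1 in 2.21% (1.29 to 3.51%) and 5.44% (3.70 to 7.68%). Thinned to 1000 UMIs, Mcl1 (49.4% and 33.9%) and Bax (14.2% and 22.8%) kept their side, while Bak1 was seen in 3.04% (1.98 to 4.46%) and 3.26% (2 to 4.99%), intervals that overlapped almost wholly. Bcl2a1b was seen in 52.6% and 63.0% of cells. In rod-like cells, which should lack it, thinned Bcl2a1b was seen in 0.205% of control and 0.629% of OIR cells (2933 and 1749 cells deep enough). Before thinning, median depths in microglia-like cells were 6574 UMIs in control and 5662 UMIs in OIR. Unthinned shares were 81.4% and 64.4% for Mcl1, 58.3% and 65.0% for Bax, 17.2% and 24.8% for Bak1, and 85.2% and 84.1% for Bcl2a1b. Bbc3 was seen in 19.5% and 11.5% of unthinned cells but in 3.25% (2.11 to 4.76%) and 2.54% (1.40 to 4.23%) of thinned cells. With 26 and 15 thinned UMIs its log2 ratio was -0.31 (-1.33 to 0.66) and not detectable at that depth. Thinned to 1000 UMIs, which kept 822 and 614 cells, Bbc3 was seen in 3.28% (2.18 to 4.74%) of control and 1.14% (0.460 to 2.33%) of OIR cells, lower in OIR with intervals that just overlapped.

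Of border macrophage-like cells, few were found, and the cells of the libraries were unlike by their own markers. Border macrophage markers summed to 1528 CPM in control and 13455 CPM in OIR, and microglial markers to 24704 and 10889.8 CPM. The control values are thus those of cells with more microglial than border macrophage transcripts, and no difference between the libraries is read from them. Mcl1 had 858 CPM in control and 572 CPM in OIR, and Bax 138 and 229.5 CPM. Bbc3 had 44.7 CPM from 10 UMIs in control and 5.44 CPM from 6 UMIs in OIR. Bcl2a1b had 661 and 443 CPM, and Pmaip1 had 62.5 and 20.9 CPM.

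Rod-like cells had 8 clusters with at least 50 cells of each library, and a member could be followed in each. Mcl1 was higher in OIR in 7 of the 8, with control levels from 42.5 to 106 CPM and OIR levels from 54.7 to 147 CPM. Bcl2 was lower in OIR in 6 of the 8 and Bcl2l11 was higher in 6 of the 8. The cluster led by E2f6, Pcolce and Fgf2 held 57 control and 1546 OIR cells, and Bcl2l11 there was 22.3 and 42.7 CPM. Without it, the Bcl2l11 log2 ratio of rod-like cells was 0.16 (-0.13 to 0.44), that of Mcl1 0.39 and that of Bcl2 -0.91. The rod-like difference in Bcl2l11 thus rested on that cluster, while those in Mcl1 and Bcl2 were of like size without it.

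**Figure D4:**
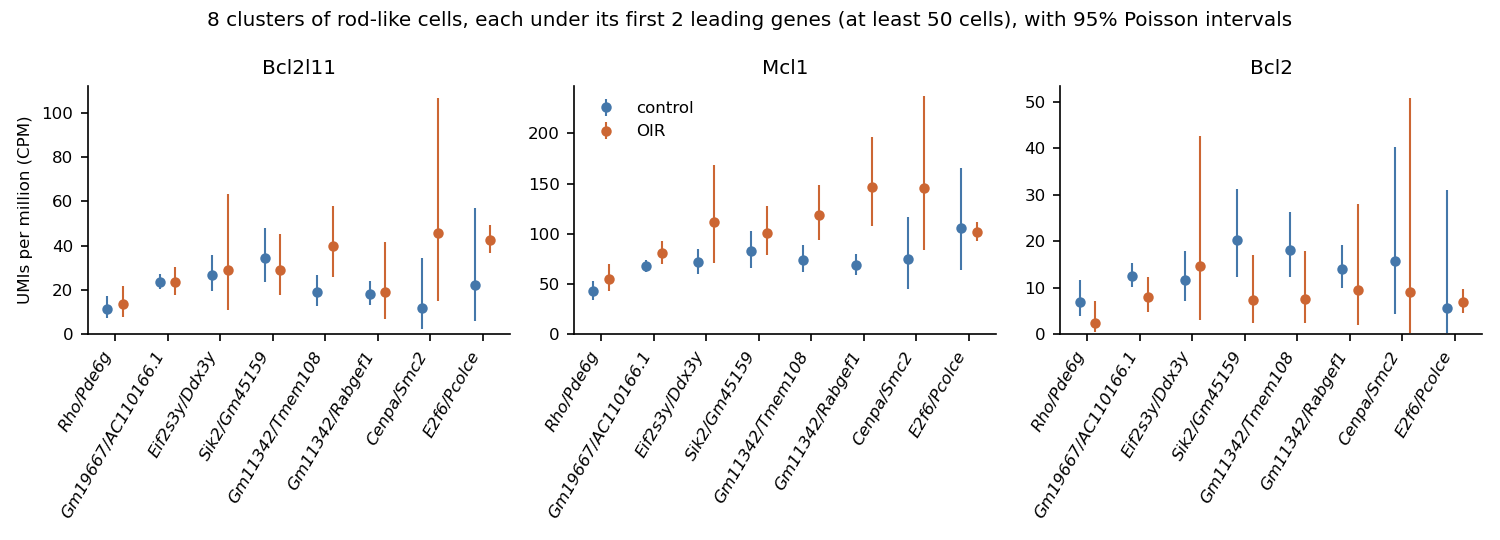
Levels of Mcl1, Bcl2 and Bcl2l11 in CPM (linear vertical axes) in the 8 clusters of rod-like cells with at least 50 cells of each library, with 95% Poisson intervals. The OIR point of Mcl1 lies above the control point in 7 of the 8 clusters.

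Bipolar-like cells had 2 clusters, and Bbc3 was lower in OIR in both. The Scgn-led cluster (206 and 249 cells) had 28.2 CPM in control and 9.27 CPM in OIR (log2 ratio -1.60, from -2.30 to -0.94). The Pcp2-led cluster (64 and 231 cells) had 29.9 and 18.1 CPM, and its interval held 0 (log2 ratio -0.73, from -1.78 to 0.41). Cone-like cells also had 2 clusters. Without the cluster with medians of 30469 and 30967 UMIs per cell, the cone-like log2 ratio of Bcl2l11 was 0.67.

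The balance of the family was summarised as the UMIs of the 6 pro-death members over those of the 4 pro-survival members. Since capture differs between genes, the ratio itself has no natural midpoint and only its difference between libraries is read. In microglia-like cells it was 0.186 in control (1800 over 9702 UMIs) and 0.289 in OIR (2343 over 8100 UMIs), a log2 difference of 0.64 (0.54 to 0.74). Müller glia-like cells had 1.10 and 1.09, rod-like cells 1.16 and 1.08, and cone-like cells 1.07 and 1.12, with intervals of the difference that held 0. Bipolar-like cells had 2.29 and 1.87, a log2 difference of -0.30 (-0.58 to -0.02). Microglia-like cells of the OIR library thus had more pro-death UMIs per pro-survival UMI. The pro-death members did not share 1 side there. Bax (940 UMIs in control and 1577 in OIR), Bak1 and Bcl2l11 had more UMIs in OIR, and Bid, Bbc3 and Pmaip1 had fewer. The bipolar-like difference turned to 0.44 under a stricter cell filter, which left 37 control cells, so no direction is read from it.

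Of all member UMIs in microglia-like cells, Mcl1 held 49.5% in control and 35.2% in OIR, and Bax 8.17% and 15.1%. Bax over Mcl1 was 0.165 in control and 0.429 in OIR, a log2 difference of 1.38 (1.24 to 1.51). The BH3-only members did not share 1 direction against Mcl1: Bcl2l11 over Mcl1 differed by 0.89 (0.62 to 1.16) and Bbc3 over Mcl1 by -0.54 (-0.92 to -0.18). In rod-like cells Bax over Mcl1 was 1.53 and 1.13, a log2 difference of -0.43 (-0.60 to -0.26), whereas Bax over Bcl2 was 7.92 and 15.4, a difference of 0.96 (0.55 to 1.38). Depending on the survival member chosen, rod-like cells therefore lay on either side. By cluster, microglia-like control cells had pro-death to pro-survival ratios of 0.174 (Icam1-led), 0.169 (Selplg-led), 0.216 (Hpgd-led) and 0.183 (Tmem119-led), and the shallow Rgs10-led cluster 0.424. OIR cells had 0.302 in the Mmp12-led, 0.308 in the Top2a-led and 0.441 in the Hmox1-led cluster. They had 0.280 in the Tmem119-led and 0.228 in the Hpgd-led cluster. OIR cells lay below control cells in the Icam1-led (0.147), Selplg-led (0.127) and Rgs10-led (0.238) clusters. Of the clusters with at least 10 cells of each library, the Tmem119-led alone had intervals apart (0.162 to 0.207 in control, 0.244 to 0.320 in OIR). Without the clusters over 90% OIR the log2 difference was 0.44, and in the Selplg-led cluster alone, with 12 OIR cells, it was -0.42.

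**Figure D5:**
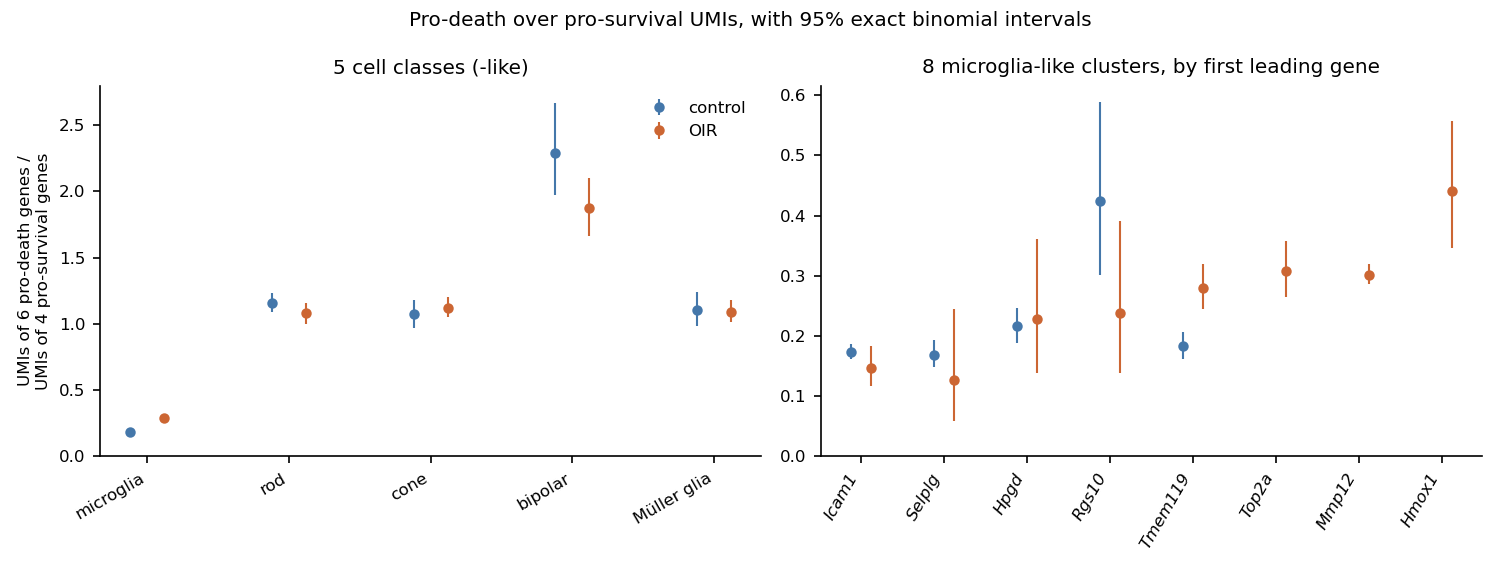
UMIs of 6 pro-death members over UMIs of 4 pro-survival members in each library, by cell class (left) and by cluster of microglia-like cells (right), with 95% exact binomial intervals. In microglia-like cells the control point is at 0.186 and the OIR point at 0.289; bipolar-like cells lie highest, at 2.29 and 1.87.

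The rest of the pathway was read from 9 lists in the same way, against the same shares of all genes. Among BH3-like proteins of hypoxia and mitophagy, Bnip3 was higher in OIR in all 5 classes. It had 37.1 CPM in control and 291 CPM in OIR microglia-like cells (log2 ratio 2.97, from 2.78 to 3.17) and 153 and 585 CPM in bipolar-like cells (1.94, from 1.79 to 2.09). Its log2 ratio was 1.59 in Müller glia-like, 1.41 in cone-like and 1.11 in rod-like cells. Bnip3 is a textbook target of hypoxia-inducible factor that marks mitochondria for removal. Its relative Bnip3l was higher in microglia-like cells (168 and 280.3 CPM) and bipolar-like cells (310.0 and 496 CPM), and Fundc1, a mitophagy receptor, was lower in Müller glia-like cells (59.0 and 37.4 CPM).

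Of the other pro-death members, Bmf, a BH3-only protein bound to the cytoskeleton, was lower in OIR microglia-like cells (55.4 and 28.7 CPM, log2 ratio -0.95). No other pro-survival member passed in any class. Downstream of the pore, 1 of 7 measured apoptosome and caspase genes was higher in microglia-like cells, Cycs for cytochrome c itself (95.9 and 161 CPM), and 1 was lower, the protease gene Htra2 (52.2 and 33.9 CPM). Of all genes measured there, 11.8% were higher and 18.1% lower. In cone-like cells Dffa, for the inhibitor of the apoptotic nuclease, was lower (21.5 and 12.5 CPM). Bipolar-like cells had 1 of 9 higher, the initiator caspase gene Casp9 (9.83 and 21.2 CPM), against 4.02% of all genes. No gene of this list passed in rod-like or Müller glia-like cells.

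Inhibitors of apoptosis proteins were lower in OIR microglia-like cells in 3 of 6 genes and higher in none. Of all genes measured in these cells, 18.1% were lower and 11.8% higher. Xiap, the direct caspase inhibitor, had 102 and 56.5 CPM, and Birc3, an NF-κB target that acts at tumour necrosis factor receptors, had 47.2 and 23.5 CPM. The third was Naip5, better known as a sensor of bacterial flagellin (37.2 and 20.9 CPM). Xiap was also lower in rod-like cells, at 380.1 CPM in control against 234 CPM in OIR (log2 ratio -0.70, from -0.77 to -0.63). In the death receptor list, 3 of 6 measured genes were lower in microglia-like cells, against 18.1% of all genes. They were the receptor gene Tnfrsf1a (111 and 73.0 CPM), Casp8 (131 and 77.4 CPM) and Cflar, which encodes the caspase-8 inhibitor FLIP (149 and 81.1 CPM). The list thus held both a promoter and an inhibitor of the pathway on the lower side. The median log2 ratio was -0.66 for the inhibitor list and -0.56 for the death receptor list, against -0.12 for all genes. Tnfrsf1a was higher in Müller glia-like cells (25.7 and 42.2 CPM).

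The list of p53 and its targets had genes past the limits on both sides in microglia-like cells, and only higher ones in the other classes. In microglia-like cells the p53 list had 2 of 8 genes higher, against 11.8% of all genes. They were Cdkn1a, the cell cycle inhibitor p21 (40.5 and 187 CPM), and Plk2 (2.75 and 28.6 CPM). The list had 3 lower, against 18.1% of all genes: Trp53 itself (79.8 and 46.5 CPM), Sesn1 (40.3 and 19.3 CPM) and Btg2 (2433 and 708 CPM). Cdkn1a was also higher in Müller glia-like (14.9 and 93.9 CPM) and bipolar-like cells (4.01 and 33.1 CPM), and Plk2 in rod-like (4.56 and 40.6 CPM) and cone-like cells (7.57 and 33.5 CPM). Müller glia-like cells also had Trp53 (17.2 and 27.0 CPM) and Phlda3 (19.3 and 40.2 CPM) higher. In microglia-like and bipolar-like cells Bbc3 was lower and Cdkn1a higher in OIR; both are textbook p53 targets.

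The stress transcription factors Atf3 and Jun were lower in OIR microglia-like cells (781 and 445 CPM, and 4464 and 1673 CPM). Atf3 was higher in rod-like (10.7 and 35.3 CPM), cone-like (7.72 and 29.7 CPM) and Müller glia-like cells (23.7 and 103 CPM), and Jun in bipolar-like cells (59.7 and 221 CPM). Jun, Atf3 and Btg2 are also immediate-early genes that tissue digestion can induce, and the part of digestion in these values was not tested. Müller glia-like cells had Ddit3, which encodes the stress factor Chop, higher (72.1 and 114 CPM) and the repressor gene Bcl6 lower (26.3 and 14.9 CPM). For turnover of the Mcl1 protein, 5 of 6 genes were measured in each class and none passed; in microglia-like cells the deubiquitinase gene Usp9x had 48.4 and 54.8 CPM and the ubiquitin ligase gene Fbxw7 26.6 and 20.1 CPM.

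The genes whose levels ran most like those of each member were found over 11 sums of a class and library with at least 50 cells, among 10072 genes, by Pearson correlation of log2(CPM + 1). These points share cell types and libraries, so the values are a description. Mcl1 ran closest with Wasf2 (0.996), Pon3 and Rnase4 (both 0.992). Bcl2a1b ran closest with Dock2 (0.999), C1qa and Cd300c2 (both 0.998), which myeloid cells express. Bax ran closest with Cstb (0.961), Bbc3 with Ldlrad4 (0.955) and Bcl2l11 with Slc3a2 (0.949). Bcl2l1, which varied least, had the loosest likeness of the 10, to Dnajc25 (0.865). Bak1 was closest to Lgals3bp (0.988), Bid to Il10rb (0.990), Pmaip1 to Was (0.998) and Bcl2 to Carnmt1 (0.957).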

How the data were processed

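Retinal cells were profiled on the 10x platform in 1 control and 1 OIR library. The deposited matrices hold raw UMI counts per gene and barcode, made with Cell Ranger 3.0.2 on mm10, per the submitters' processing notes. The totals of 50081145 and 49773742 UMIs limit precision for members under 20 CPM. A barcode was kept with 500 genes or more and no more than 10% mitochondrial UMIs (9454 and 6516 barcodes). The automatic Scrublet limit marked 1 and 0 barcodes and had not worked, so those with the highest scores were taken out at an assumed rate of 0.8% per 1000 barcodes (869 and 384). Clusters were made in scanpy 1.11.5 (2000 variable genes, 30 components, 20 neighbours, Leiden resolution 1), with myeloid cells clustered again, and named "-like" from at least 3 markers. The naming rule was revised with class names, but not member values, in view; its first form is an alternative. UMIs were summed by class and library. Classes with at least 200 cells per library were compared. Poisson, binomial and conditional exact intervals are at 95%; scripts were tested on simulated data. Ratios of 0 UMIs are set against 3 counts and left out where that turns the direction, a rule added after seeing the output. Members and lists were chosen with earlier results of these data known. All members were described in each class; of pathway genes, counts and the 2 largest ratios per list and class, plus the others that passed; 1 result is not reported here.

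Alternatives were another scaling, other limits, cell filters, doublets kept, coarser clusters, thinning, marker-based classes, fewer rod transcripts and the Bcl2a1 copies summed. Subsets of clusters, cells of at least 3000 UMIs and the first naming rule were chosen after seeing the data.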

Additional observations from a re-analysis of the deposited data

Results flagged for a closer look

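For 3 members the ratio of OIR to control lay on opposite sides in 2 classes, with neither interval holding equality. The differences between classes were not tested, since each class had 1 library per group, and the same 2 libraries gave all of them. For Bcl2, the log2 ratio in microglia-like cells exceeded that in rod-like cells by 1.98, with levels under 20 CPM in both. For Mcl1, the log2 ratio in rod-like cells exceeded that in microglia-like cells by 1.04, and that in Müller glia-like cells exceeded it by 1.11. For Bbc3, the log2 ratio in cone-like cells exceeded that in microglia-like cells by 2.51 and that in bipolar-like cells by 2.65. In Müller glia-like cells it exceeded that in microglia-like cells by 2.95 and that in bipolar-like cells by 3.08. The control cone-like and Müller glia-like sums held 7 Bbc3 UMIs each.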

How the results depend on the processing

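No paired analysis was possible because each group had 1 library and the labels give no replicate numbers; leaving out a replicate was not possible either. Bax, Bid and Bbc3 in microglia-like cells, Bcl2l11 in cone-like cells and Bbc3 in bipolar-like cells kept their direction in all alternatives that gave a value: 0.52 to 0.91 (13 alternatives), -0.69 to -0.38 (12), -1.42 to -0.31 (13), 0.26 to 1.75 (9) and -1.60 to -0.58 (11). Their place past the limits was less stable, and, apart from changed limits, the cause was not tested. The counts below with a fold of 2, at 50 CPM and with no CPM minimum follow from the main values. They are no separate check of stability.

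Members higher in microglia-like cells numbered 1. The count was 0 with a fold of 2, without the clusters over 90% OIR and under the first naming rule (Bax log2 ratio 0.53). It was also 0 in the cluster with the highest Tmem119, which is the Selplg-led and not the Tmem119-led one. It was 2, Bax and Bak1 or Bcl2, with median-ratio scaling, with no CPM minimum, after thinning and in the cluster with over 100 cells of each library, and 3 with coarser clustering. Members lower in microglia-like cells numbered 2, but 1 with median-ratio scaling, a fold of 2, doublets kept and thinning (where it was Mcl1). They also numbered 1 without the clusters over 90% OIR and in the cluster with over 100 cells of each library. They numbered 0 at 50 CPM and in the highest-Tmem119 cluster, and 3 (Mcl1, Bid and Bbc3) with the stricter cell filter. Under the first naming rule the 2 lower were Bbc3 and Pmaip1. Rod-like cells had 0 members in either direction, but 1 higher and 1 lower with no minimum, and 1 higher after thinning. Cone-like cells had 1 higher, but 0 with a fold of 2, at 50 CPM and with the stricter filter, and 3 with no minimum. Bipolar-like cells had 1 lower, but 0 at 50 CPM, with the stricter filter, after thinning and in the Pcp2-led cluster. Müller glia-like cells had 0, but 1 higher with no minimum, the stricter filter and thinning, and 1 lower with the stricter filter, which left 34 control cells.

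The log2 difference in pro-death over pro-survival UMIs turned to -0.42 in the highest-Tmem119 cluster of microglia-like cells (12 OIR cells) and to 0.44 in bipolar-like cells under the stricter filter (37 control cells). In microglia-like cells it was 0.44 without the clusters over 90% OIR and 0.54 under the first naming rule. In rod-like cells it was 0.08 from 3000 UMIs and 0.06 under the first naming rule. After thinning it was 0.31 in cone-like and 0.46 in Müller glia-like cells.

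Scaling by the median of gene ratios moved the median of all genes by -0.09 to 0.05 and, among all genes past the limits, the share higher in OIR from 39.5% to 51.2% in microglia-like, 76.7% to 66.5% in rod-like and 39.0% to 51.7% in bipolar-like cells.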
